A study of Mus musculus with 24 samples.

Results

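The cytosolic ribosomal proteins are described here in RAW264.7 cells, a mouse macrophage line, exposed to grape proanthocyanidins and to lipopolysaccharide (LPS). Members were taken by symbol: every gene feature of the array whose symbol is Rpl, Rps or Rplp followed by a number. Of 74 such symbols, 6 Rps6k kinases, 1 pseudogene symbol and 7 symbols ending in l were left out, so 60 members remained of 22206 gene features. They comprised 54 structural proteins of the ribosome, 33 of the large subunit and 21 of the small subunit, and 6 genes that share the symbol but are not in the list of structural proteins (Rpl22l1, Rpl7l1, Rpl37rt, Rps27rt, Rps23rg1 and Rps19bp1). A further 22 structural proteins that follow the same naming were not analysed here.

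Proanthocyanidins (PAC) are polymers of flavan-3-ols, and the fractions called low, medium and high differ in their degree of polymerization. In LPS-activated macrophages there were 4 groups. In low PAC + LPS, medium PAC + LPS and in high PAC + LPS, cells received PAC at 15 µg/mL for 30 min and then LPS at 500 ng/mL for 6 h, and the group called LPS received LPS alone. In resting macrophages there were 4 more: low PAC, medium PAC and high PAC, with the same PAC and mock stimulation, and control, which was mock treated. Each group had 3 arrays, 24 in all, numbered 1 to 3. All groups are 1 cell line in culture, kept within a stated passage limit. Nothing in the labels ties the numbers 1 to 3 to separate cultures, so p-values here measure only how far these samples spread, and that spread may be technical.

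Ribosomal proteins are assembled with rRNA in the nucleolus into the small subunit, which reads the mRNA, and the large subunit, which forms the peptide bond. Their mRNAs are among the most abundant of a growing cell, and most start with a C followed by a run of pyrimidines, the 5′ terminal oligopyrimidine (TOP) tract, through which mTORC1 signalling controls their translation. Because that control acts on translation, mRNA levels such as those on an array do not show it.

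The start sites show how many members carry such a tract at the place annotated as the first base. RefSeq promoter entries (GRCm38.p6) were found for 48 of the 60 members, with 57 start sites. At 12 of the 57 (21.1%) the annotated first base was a C followed by at least 4 further C or T, against 2.51% of the 32851 start sites of all genes in the table. Such a tract began within 10 bases of the annotated start at 47.4% of the 57, against 29.0% of all start sites. The windows below run from 20 bases before the annotated start to 10 bases from it, 5′ to 3′ on the gene's strand, and capitals mark a C followed by 4 or more C or T that begins within 10 bases of the start, as far as the window holds it. Rps21, Rpl35a, Rpl35, Rpl38, Rpl28 and Rps6 are shown because they have such a tract at the start and because the results below turn on them, Rps6 as the member that moved least.
Rps21 (chr2:180257359-180257388, + strand): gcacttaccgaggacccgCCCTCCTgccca
Rpl35a (chr16:33056462-33056491, + strand): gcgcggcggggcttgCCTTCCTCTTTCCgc
Rpl35 (chr2:39005122-39005151, - strand): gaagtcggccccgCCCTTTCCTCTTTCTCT
Rpl38 (chr11:114668560-114668589, + strand): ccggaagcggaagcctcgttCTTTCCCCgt
Rpl28 (chr7:4792945-4792974, + strand): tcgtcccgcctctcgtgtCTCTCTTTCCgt
Rps6 (chr4:86857358-86857387, - strand): gggttaagcggaagtcgggCCTCTTTTTCg
Rpl22 and the 3 members that rose with LPS are shown because their annotated first base does not open a tract of that length.
Rpl22 (chr4:152324416-152324445, + strand): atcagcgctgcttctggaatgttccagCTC
Rpl22l1 (chr3:28805488-28805517, + strand): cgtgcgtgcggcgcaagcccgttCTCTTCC
Rpl7l1 (chr17:46782647-46782676, - strand): gcccggtgaggctgcgcaagcgcagtagct
Rps19bp1 (chr15:80264297-80264326, - strand): accgccagggcggaagtagctcgccgcgtg
Rpl35a, Rps21 and Rpl22 have other annotated starts as well, and a start annotated a few bases off would hide a tract.

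In the 300-base promoter windows, searched on both strands and without regard to overlaps between motifs, CCGGAAG, the core bound by ETS factors, was found for 37.5% of the 48 members and for 9.93% of the 27025 genes in the table. GGGCGG, the core bound by Sp1, was found for 56.2% of members and 38.2% of all genes. CCATNTT, a core of the YY1 motif, was found for 29.2% of members and 18.2% of all genes. TATAAA was found for 12.5% of members against 15.7% of all genes, and CACGTG, the E-box that Myc binds, for 8.33% against 8.09%. The median log2 difference of the 12 members with a tract at the start and of the 36 without was -0.13 and -0.18 in LPS against control, -0.23 and -0.24 in medium PAC and -0.29 and -0.20 in high PAC against control, and -0.16 and -0.24 in medium PAC + LPS and -0.20 and -0.19 in high PAC + LPS against LPS. These differences between the tract groups were not tested and did not run one way.

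The array reports a log2 signal per gene on a scale that ran to 19.26 in the deposited table. The members lay at its upper end: 34 of 60 had a mean above 16, against 251 of all 22206 gene features. Every member exceeded 4.73, the level of olfactory and vomeronasal receptor genes taken here as a low-signal reference, in the mean of at least 1 group. Rps6 (18.06), the small subunit protein that S6 kinases phosphorylate, Rps23 (17.99) and Rpl23 (17.85) had the highest mean signal over the 24 arrays. Rpl22l1 (11.87), Rps19bp1 (11.53) and Rps23rg1 (5.16), none of them in the list of structural proteins, had the lowest. Signals of different genes come from different probes, so this order is one of brightness and not of mRNA amount. The members varied little between arrays of a group: the median SD within groups was 0.0822, against 0.256 for the 12744 gene features above the receptor level and 0.0921 for 494 other gene features with a mean above 15.

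The cells had the profile of macrophages on all 24 arrays: Lyz2 ran from 17.32 to 18.63, Itgam from 12.46 to 15.67 and Csf1r from 14.18 to 17.54. Cd3e, Ms4a1, Cd79a, Epcam and Dcn, markers of T cells, B cells, epithelium and fibroblasts, did not exceed 4.96 on any array. Of the 15 markers of other cell types measured, 9 stayed at or below the receptor level on all arrays, Cd3e and Col1a2 passed it on 1, Krt8 on 2 (up to 5.18) and S100a9 on 3, while S100a8, a neutrophil marker also made by activated macrophages, ran from 3.56 to 13.38 and Col1a1 from 5.49 to 7.14. Il6 stood 12.95 higher and Tnf 4.58 higher in LPS than in control on the log2 scale (limma, adjusted p = 1.4e-14 and 2.9e-17). Among the resting PAC arrays, medium PAC 3, high PAC 2 and high PAC 3 had Il1b signals of 9.39, 11.92 and 9.62, against 4.95 to 6.05 on the other 6 and 4.86 to 6.40 in control, so the counts of called members in resting medium or high PAC are given with and without those 3 arrays. The part of Il1b in the member results was not tested beyond that. The gene median ran from 4.86 to 5.06 over the arrays.

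The median over the 60 members gave the broad picture. It was 16.23 ± 0.05 in low PAC + LPS, 16.11 ± 0.02 in medium PAC + LPS, 16.13 ± 0.07 in high PAC + LPS and 16.40 ± 0.01 in LPS (mean ± SD, n = 3 arrays). In resting cells it was 16.48 ± 0.04 in low PAC, 16.37 ± 0.03 in medium PAC, 16.48 ± 0.05 in high PAC and 16.59 ± 0.08 in control. This array median is not the median of the members' differences used below. The latter was -0.04 in low PAC, -0.23 in medium PAC and -0.21 in high PAC against control, so low and high PAC differ there. The group with the highest mean was control for 29 members and low PAC for 15, while the lowest mean was in one of the 3 PAC + LPS groups for 50 members. The highest mean of 0 members lay in medium PAC, in low PAC + LPS or in medium PAC + LPS. The group means of a member spanned 1.45 for Rpl22l1, 0.87 for Rpl22 and 0.83 for Rps21, and 0.15 for Rps6.

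**Figure D1:**
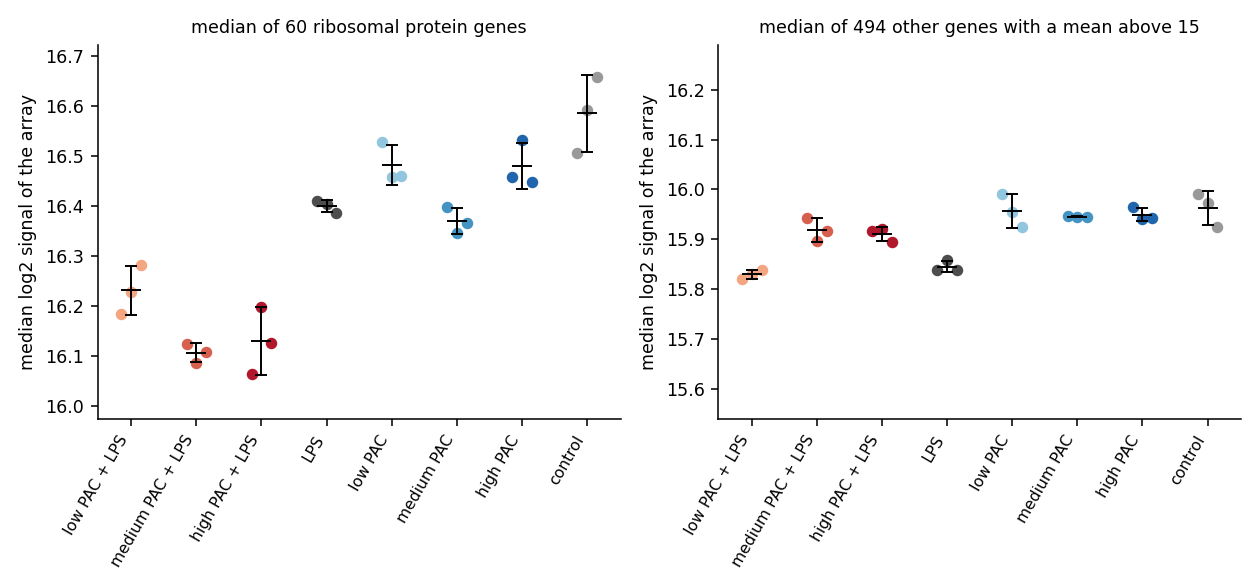
Median log2 signal of each of the 24 arrays over the 60 ribosomal protein genes (left) and over 494 other gene features with a mean above 15 (right), by group; points are arrays and bars are the mean ± SD of 3. The members' medians with LPS and medium or high PAC (16.11 and 16.13) lie below that of LPS (16.40), whereas the other bright genes lie slightly above LPS in those groups (15.92 and 15.91, against 15.85).

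The question of the first comparison was what LPS alone did. By limma, 3 members outside the list of structural proteins stood higher and 10 members within it lower in LPS than in control. Rpl22l1, the paralogue of Rpl22, had signals of 12.59, 12.60 and 12.51 in LPS, against 11.75, 11.86 and 11.73 in control. The groups did not overlap, and the difference was 0.79 ± 0.13 (SE, limma, adjusted p = 6.5e-05). Rpl22 itself, a large subunit protein known for its role in T cell development, had 16.50, 16.41 and 16.37 in LPS, against 16.96, 16.94 and 16.89 in control. It differed by -0.50 ± 0.11 (adjusted p = 0.00059), so the pair moved in opposite directions. Rps19bp1, a binding partner of Rps19 and of the deacetylase SIRT1, had 11.819, 11.826 and 12.0004 in LPS, against 11.439, 11.163 and 11.584 in control, a difference of 0.49 ± 0.13 (adjusted p = 0.0063). Rpl7l1, an Rpl7 paralogue of the pre-ribosome, was 0.28 higher (adjusted p = 0.045).

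The 10 lower members were Rpl22, Rpl36a (-0.38), Rpl6 (-0.37), Rps15 (-0.32), Rpl32 (-0.32), Rps21 (-0.32), Rpl3 (-0.31), Rpl14, Rpl31 and Rpl11, with adjusted p between 0.00059 and 0.044. Of the 60 members 16.7% were called lower, against 20.3% of all gene features, and 5% higher, against 13.5%, so neither share exceeded the background. In 30 of 60 members every LPS array lay below every control array, against 24.5% of all features. The members' median difference was -0.18, beside -0.14 for the 494 other bright features, and turned to 0.07 once each array was centred on its expressed genes. Under that centring 4 members were called higher and 0 lower, and 3 higher and 2 lower once arrays were centred on the other bright genes. Leaving out any 1 of the 6 arrays gave 6 to 9 calls, 9 only without LPS 2, whereas Rpl22l1 was called under all 13 alternatives (0.76 to 1.03). In bulk RNA such as this, fewer cells expressing a gene and less RNA per cell cannot be told apart.

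In resting macrophages the question was what each PAC fraction did on its own. In medium PAC 12 members were lower and 0 higher than in control by limma, and 43 of 60 lay below control on every array, against 16.0% of all features. The 12 were 20.0% of the members, against 6.28% of all features called lower. Rpl35a, a large subunit protein that is mutated in some patients with Diamond-Blackfan anaemia in man, had 13.79, 13.90 and 13.66 in medium PAC, against 14.41, 14.44 and 14.63 in control. It fell by 0.71 ± 0.14 (SE, limma, adjusted p = 0.0013). Rps21, a small subunit protein needed for late maturation of that subunit in yeast, had 15.42, 15.47 and 15.64 in medium PAC, against 16.15, 16.23 and 16.21 in control. Its difference of -0.69 ± 0.11 (adjusted p = 9.7e-05) exceeded the spread in either group. Both calls held under all 15 alternatives.

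The other 10 were smaller. Rpl22 (-0.48) and Rps20 (-0.48) came next, with Rps20 at 15.66, 15.65 and 15.73 in medium PAC, against 16.12, 16.15 and 16.20 in control. Rpl9 (-0.46), Rpl39 (-0.46), a protein of the exit tunnel, Rpl7l1 (-0.39) and Rpl36a (-0.38) followed. Rpl5 (-0.36) and Rpl11 (-0.35), which bind 5S rRNA and can inhibit Mdm2, fell by similar amounts, as did Rps29 (-0.34) and Rpl31 (-0.33). In all 12 the groups did not overlap. The members' median was -0.23, and it stayed between -0.17 and -0.23 under the 3 other scalings, while the other bright features had a median of -0.00. Without medium PAC 3 and the other 2 arrays with high Il1b, which left 2 medium PAC arrays, 7 members were called, beside 993 of all 22206 features called lower. Leaving out any 1 of the 6 arrays gave 6 to 9 calls, 9 only without control 1. Centring on expressed genes gave 6 of 60, beside 1080 of 22206. Fitting only the compared groups gave 2 of 60, beside 865 of 22206, so in that refit the members' share did not exceed that of all features.

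**Figure D2:**
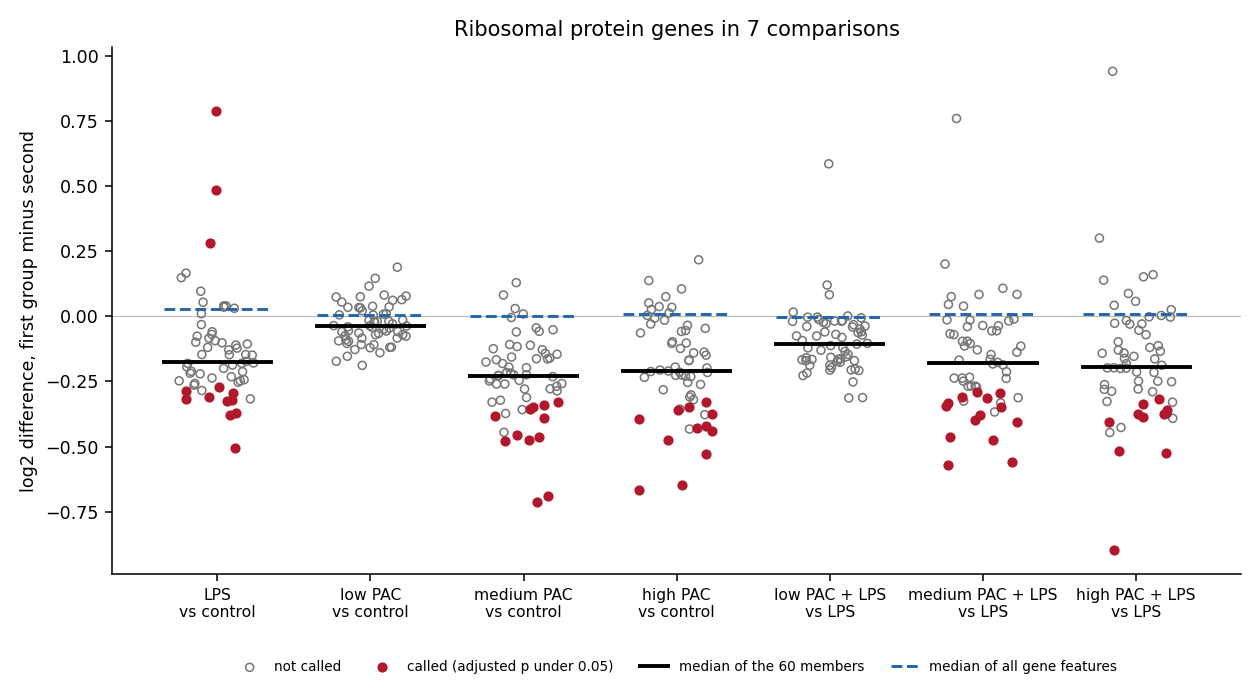
Log2 difference of each of the 60 members in the 7 comparisons with control or LPS (first group minus second); filled red points were called, black bars are the median of the members and dashed blue bars that of all gene features. All called members are lower in the 4 comparisons of medium and high PAC, and the members' median in LPS against control (-0.18) turns to 0.07 when arrays are centred on expressed genes.

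In high PAC 12 members were also lower and 0 higher, or 20.0% against 3.64% of all features called lower. In 29 members every high PAC array lay below every control array, against 12.5% of features, and in 3 every array lay above. Rpl22l1 had 10.92, 11.18 and 11.25 in high PAC, against 11.75, 11.86 and 11.73 in control, a difference of -0.67 ± 0.13 (SE, limma, adjusted p = 0.0030). Rps21 had 15.57, 15.62 and 15.46 in high PAC, against 16.15, 16.23 and 16.21 in control, and fell by 0.65 ± 0.11 (adjusted p = 0.00040). Rpl35a fell by 0.53 ± 0.14 (adjusted p = 0.024), with all 3 high PAC arrays between 13.94 and 14.01.

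Rpl38, which is needed for the translation of Hox mRNAs in the mouse embryo, had 14.89, 14.79 and 14.39 in high PAC, against 15.04, 15.26 and 15.20 in control, a difference of -0.48 with high PAC 3 the lowest. The Rpl38 call held under 9 of 15 alternatives and was lost under the others. Rpl39, Rpl22, Rpl36a, Rps24, Rpl35, Rpl31, Rpl11 and Rpl5 were called with differences from -0.33 to -0.44. The members' median was -0.21 (-0.16 to -0.24 under the other scalings). Without the 3 arrays with high Il1b, which left 1 high PAC array whose spread was taken from the remaining groups, 3 members were called. Leaving out any 1 of the 6 arrays gave 4 to 7 calls. Centring on expressed genes gave 4 of 60, beside 666 of all 22206 features called lower. Fitting only the compared groups gave 0, beside 303 of 22206. In low PAC 0 members were called, by limma, and 0 had an unadjusted p under 0.05, while 0.0360% of all features were called. The members' median was -0.04, and 7 of 60 lay below control without overlap, against 5.94% of features.

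**Figure D3:**
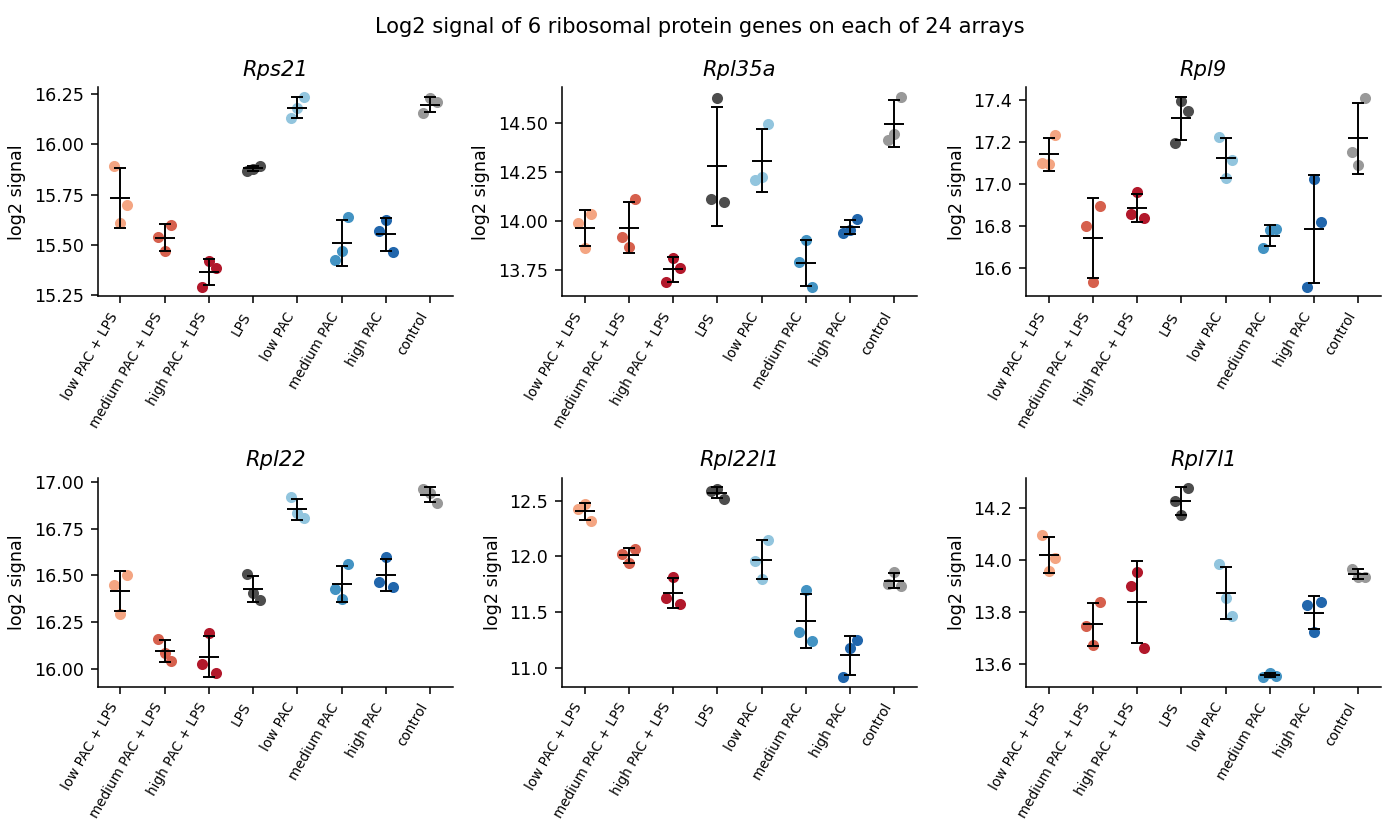
Log2 signal of Rps21, Rpl35a, Rpl9, Rpl22, Rpl22l1 and Rpl7l1 on each array, with LPS-activated groups left and resting groups right; points are arrays and bars the mean ± SD of 3, and the vertical axes do not start at 0. Rps21 lies at 15.42 to 15.64 in medium and high PAC, against 16.15 to 16.23 in control, and Rpl22l1 is highest in LPS at 12.51 to 12.60.

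In LPS-activated macrophages the question was what PAC changed on top of LPS. In medium PAC + LPS 14 members were lower and 0 higher than in LPS by limma (23.3%, against 7.47% of all features called lower). On 34 of 60 members the arrays lay below LPS without overlap, against 14.4% of features. Rpl9 had 16.80, 16.53 and 16.90 in medium PAC + LPS, against 17.20, 17.39 and 17.35 in LPS, a difference of -0.57 ± 0.14 (SE, limma, adjusted p = 0.0057). Rpl22l1 had 12.02, 11.94 and 12.07 in medium PAC + LPS, against 12.59, 12.60 and 12.51 in LPS, and fell by 0.56 ± 0.13 (adjusted p = 0.0057). All 3 Rpl22l1 signals stayed above the control arrays, at 11.73 to 11.86.

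Rpl7l1 had 13.75, 13.67 and 13.84 in medium PAC + LPS, against 14.23, 14.17 and 14.28 in LPS, and fell by 0.47 ± 0.11 (adjusted p = 0.0030). Rpl36 (-0.46), Rpl37rt (-0.40), a retrotransposed copy of Rpl37, and Rps25 (-0.40), which some viral RNAs need for internal initiation, followed. Rpl11, Rpl37, Rps21, Rpl22, Rpl31, Rpl36a, Rps9 and Rpl5 had differences from -0.29 to -0.38. The members' median was -0.18 (-0.16 to -0.25 under the other scalings), while that of the 494 other bright features was 0.06. Leaving out any 1 of the 6 arrays gave 5 to 8 calls, and centring on other bright genes 22. Centring on expressed genes gave 7 of 60, beside 1549 of all 22206 features called lower. Fitting only the compared groups gave 0 of 60, beside 984 of 22206, so in that refit the members' share did not exceed that of all features.

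In high PAC + LPS 11 members were lower and 0 higher than in LPS (18.3%, against 5.74% of all features called lower), and 34 of 60 lay below LPS without overlap, against 13.6% of features. Rpl22l1 had 11.62, 11.82 and 11.57 in high PAC + LPS, against 12.59, 12.60 and 12.51 in LPS. Its difference of -0.90 ± 0.13 (SE, limma, adjusted p = 0.00011) was the most negative of any member in these 7 comparisons and held under all 13 alternatives. It lay near the control arrays, at 11.73 to 11.86.

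Rps21 had 15.29, 15.42 and 15.38 in high PAC + LPS, against 15.87, 15.88 and 15.89 in LPS, and fell by 0.52 ± 0.11 (adjusted p = 0.0026). Rpl35a fell by 0.53 ± 0.14 (adjusted p = 0.018), though LPS 2 (14.62) stood apart from LPS 1 and LPS 3 (14.11 and 14.09), and without LPS 2 the difference was -0.35 (adjusted p = 0.12). Rps24 (-0.40), mutated in some patients with Diamond-Blackfan anaemia, Rpl7l1 (-0.39), Rps25, Rpl36a, Rpl5, Rpl22, Rpl35 and Rps9 (-0.32) were the others. The median of -0.19 (-0.08 to -0.26 under the other scalings) stood beside 0.05 for the other bright features. With arrays centred on expressed genes the split was 2 higher and 2 lower in place of 0 and 11, beside 862 of all 22206 features called lower. Leaving out any 1 of the 6 arrays gave 4 to 8 calls, 8 only without high PAC + LPS 2. Fitting only the compared groups gave 1 of 60, beside 427 of 22206. In these 2 refits the share of members called lower was no larger than that of all features. In low PAC + LPS 0 members were called by limma (3 had an unadjusted p under 0.05), with 0.149% of all features called. Its median was -0.11, and 20 of 60 members lay below LPS without overlap, against 6.38% of features.

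**Figure D4:**
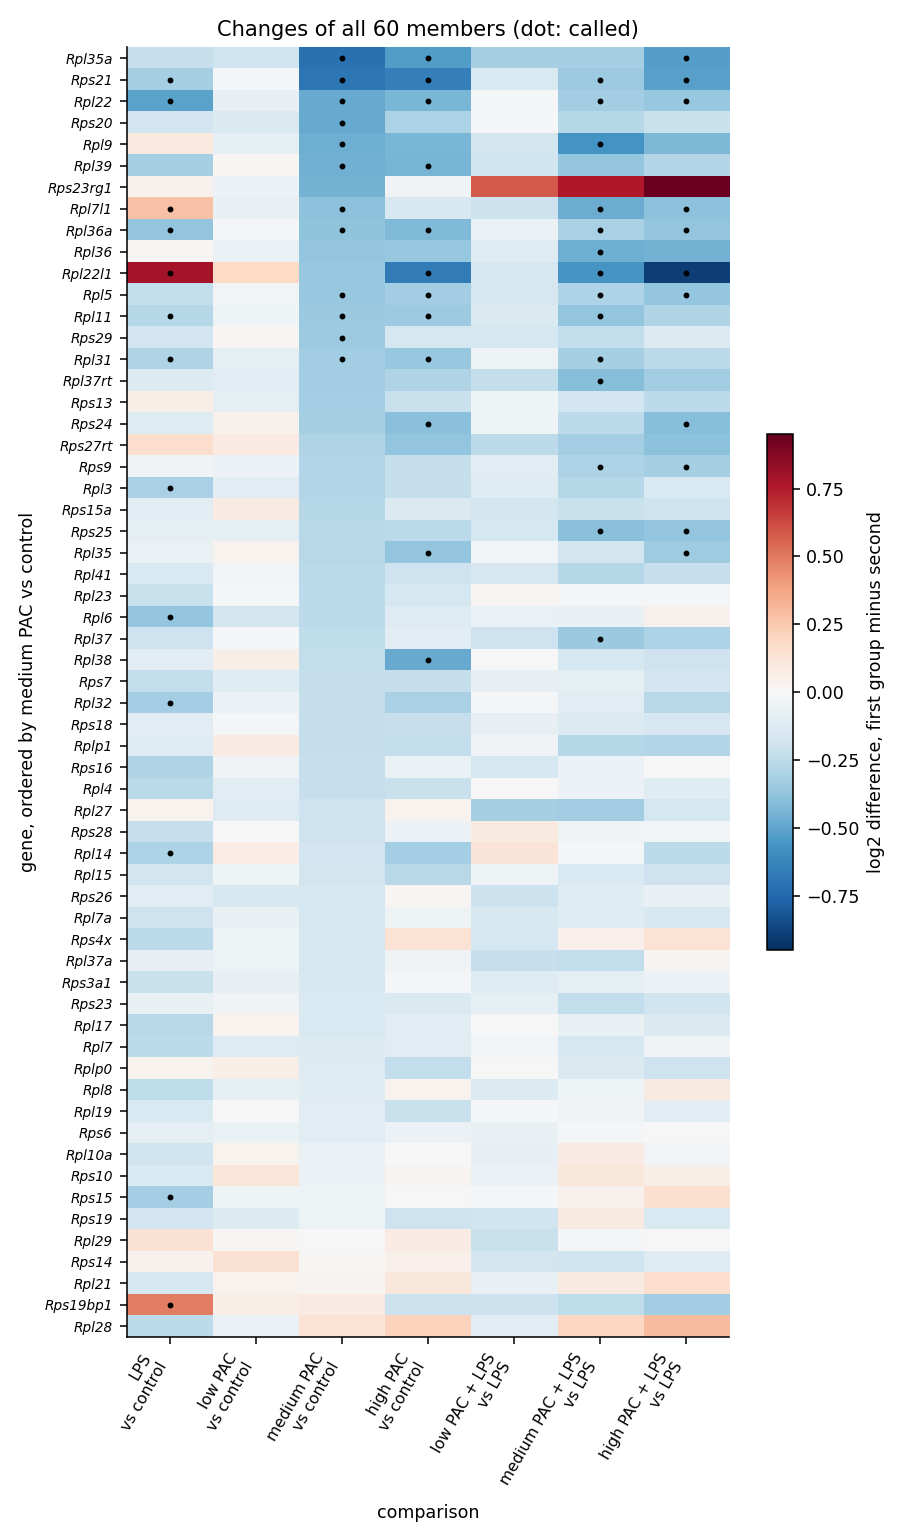
Log2 difference (first group minus second) of all 60 members in the 7 comparisons, ordered from the most negative to the most positive in medium PAC against control; blue is lower, red is higher and a dot marks a call. Rps21, Rpl22, Rpl36a and Rpl5 carry a dot in all 4 comparisons of medium and high PAC, and Rpl28 stands at the positive end; the colours of LPS against control shift towards red when arrays are centred on expressed genes, which moves the members' median from -0.18 to 0.07.

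Across the 4 comparisons of medium and high PAC with their own baseline, 21 of 60 members (35%) were called lower at least once, against 12.9% of all features, and 4 (6.67%) in all 4, against 1.14%. With arrays centred on expressed genes 13 members (21.7%) were called lower at least once, against 10.8% of all features, and 0 in all 4, against 0.82%. With only the compared groups fitted it was 3 (5%) against 7.65%, and 0 against 0.288%, so neither share exceeded that of all features. Leaving out the 3 arrays with high Il1b kept 1 high PAC array, so these counts are not given for that setting. As deposited, Rpl22, Rpl36a, Rpl5 and Rps21 were called in all 4, and Rpl11, Rpl22l1, Rpl31, Rpl35a and Rpl7l1 in 3. Between the 4 comparisons, Rpl36a fell by 0.31 to 0.42, whereas Rps21 fell by 0.34 to 0.69. Rpl36a had 16.02, 16.02 and 16.12 in medium PAC and 15.990, 15.996 and 16.060 in high PAC, against 16.43, 16.50 and 16.37 in control. With LPS it had 15.76, 15.74 and 15.75 in medium PAC + LPS and 15.64, 15.74 and 15.67 in high PAC + LPS, against 16.01, 16.18 and 15.98 in LPS. Rpl5 had 17.22, 17.17 and 17.18 in medium PAC and 17.16, 17.19 and 17.30 in high PAC, against 17.53, 17.59 and 17.51 in control. Its arrays in low PAC, at 17.51 to 17.52, lay at the control level. Rpl22 had 16.42, 16.37 and 16.56 in medium PAC and 16.46, 16.60 and 16.44 in high PAC, against 16.96, 16.94 and 16.89 in control. With LPS it had 16.16, 16.08 and 16.04 in medium PAC and 16.02, 16.19 and 15.98 in high PAC, against 16.50, 16.41 and 16.37 in LPS, so the arrays of medium and high PAC with LPS lay below those of all other groups, low PAC + LPS (16.29 to 16.50) included. Medium PAC and high PAC share the control arrays, and their LPS counterparts share the LPS arrays. The resting and the LPS comparison of one fraction share none.

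For medium PAC, 8 members were called lower with and without LPS, 66.7% of the 12 resting calls and 57.1% of the 14 calls with LPS, beside 43.0% and 36.2% of all features called lower in either (Rpl11, Rpl22, Rpl31, Rpl36a, Rpl5, Rpl7l1, Rpl9 and Rps21). For high PAC it was also 8, 66.7% of 12 and 72.7% of 11, beside 50.9% and 32.2% of all features (Rpl22, Rpl22l1, Rpl35, Rpl35a, Rpl36a, Rpl5, Rps21 and Rps24). Without the 3 arrays with high Il1b, medium PAC shared 3 members. They were 42.9% of its resting calls and 30% of its calls with LPS, beside 48.8% and 29.7% of all features. With arrays centred on expressed genes it shared 1, 16.7% and 14.3%, beside 46.1% and 32.1%. In both settings the medium PAC shares stood near or below those of all features. High PAC shared 2 under that centring, 50% and 100%, beside 42.8% and 33.1%. Its count without the arrays with high Il1b, which left 1 resting array, is not given. With only the compared groups fitted, medium PAC had 2 resting calls and 0 with LPS, and high PAC 0 and 1. No member could then be shared, while 278 and 91 of all features were shared for medium and high PAC. Over the 60 members, measured with the same probes and 1 normalization of the 24 arrays in both, the differences with and without LPS had a Pearson r of 0.46 and a Spearman rho of 0.70 for medium PAC, 0.76 and 0.84 for high PAC, and 0.09 and 0.13 for low PAC. The interaction terms, which test whether the PAC effect differs with LPS, called 0 members by limma for each fraction, while they called 0%, 6.29% and 1.91% of all features for low, medium and high PAC. At an unadjusted p under 0.05 they gave 0, 2 and 1 member. Without the 3 arrays with high Il1b the terms for medium and high PAC also called 0. The intervals remained wide for single genes: for Rps21 the interaction with medium PAC was 0.345 (95% interval 0.03 to 0.66, adjusted p = 0.23).

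**Figure D5:**
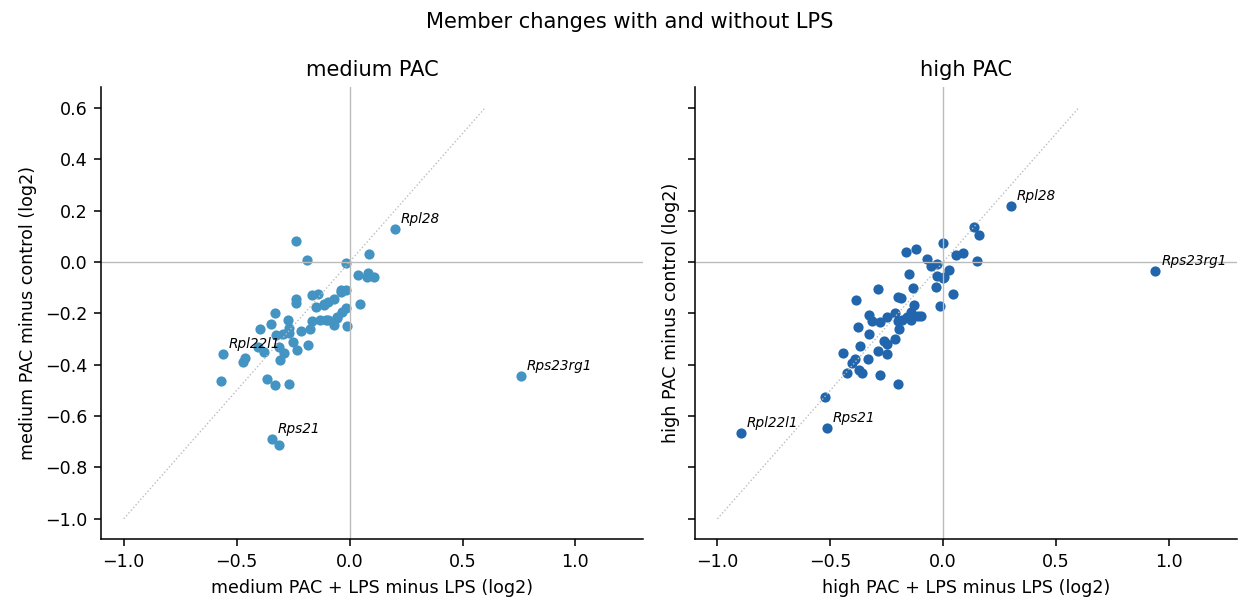
Log2 difference of each member in LPS-activated cells (horizontal axis, PAC + LPS minus LPS) and in resting cells (vertical axis, PAC minus control), for medium PAC (left) and high PAC (right); the dotted line marks equal differences. Most members lie in the lower left part of the axes (50 of 60 for medium PAC, 46 of 60 for high PAC), and Rps23rg1 lies far to the right.

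The fractions were compared with each other at equal mass, 15 µg/mL. Without LPS, medium PAC stood lower than low PAC in 11 members (18.3%, against 4.72% of all features called lower), led by Rps21 (-0.67 ± 0.11, SE, limma, adjusted p = 0.00015), Rpl22l1 (-0.55), Rpl35a (-0.52), Rpl39 (-0.46) and Rpl22 (-0.40). Rps21 had 15.42, 15.47 and 15.64 in medium PAC, against 16.13, 16.18 and 16.23 in low PAC, and was called under all 15 alternatives. High PAC stood lower than low PAC in 7 members (11.7%, against 2.77% of all features), namely Rpl22l1 (-0.85, adjusted p = 0.00042), Rps21 (-0.63), Rpl38, Rps24, Rpl35, Rpl36a and Rpl14. Without the 3 arrays with high Il1b these counts were 5 and 2, and leaving out any 1 array gave 1 to 6 and 2 to 6. Medium PAC and high PAC differed in 0 members by limma (4 at an unadjusted p under 0.05, 2.27% of all features called, and 0 also without the arrays with high Il1b). The SE of a member's difference was 0.11 at the median, so small differences between them were not detectable. For Rpl22l1, medium PAC minus high PAC was 0.31 (95% interval 0.03 to 0.59, adjusted p = 0.36).

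With LPS, high PAC + LPS differed from low PAC + LPS in 5 members. Rpl22l1 (-0.73, adjusted p = 0.0014), Rps21 (-0.37), Rpl14 (-0.37) and Rps24 (-0.36) were lower, 6.67% of the members against 3.85% of all features. Rpl28 was higher, with 16.90, 16.86 and 17.04 in high PAC + LPS, against 16.46, 16.59 and 16.54 in low PAC + LPS (0.40 ± 0.11, adjusted p = 0.024), or 1.67% of the members against 3.14% of all features. Leaving out any 1 of the 6 arrays gave 1 to 4 calls. Rpl28 was the only member called higher in any comparison of the fractions, and it was not called against LPS alone (0.30, adjusted p = 0.087). Medium PAC + LPS differed in 0 members from low PAC + LPS (12 at an unadjusted p under 0.05, smallest adjusted p = 0.054, 12.5% of all features called) and from high PAC + LPS (3 at an unadjusted p under 0.05, 5.37% of all features called).

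The brightest member, Rps6, also had the smallest span of group means. It had 18.06, 17.97 and 18.08 in medium PAC, against 18.12, 18.21 and 18.10 in control, and was not called in any of the 7 comparisons with control or LPS (differences from -0.11 to 0.00). Rps23 and Rpl23, next in brightness, were not called either, whereas Rpl11 and Rpl31 (means of 17.50 and 17.39) were called in 3 of the 4 comparisons of medium and high PAC. Whether signals near the top of the scale are compressed was not tested. Of the stalk proteins, which recruit elongation factors, Rplp0 differed by -0.23 to 0.06 and Rplp1 by -0.28 to 0.08 with 0 calls. Rplp1 nevertheless had 17.53, 17.44 and 17.47 in medium PAC + LPS, against 17.73, 17.77 and 17.76 in LPS, without overlap (-0.27, adjusted p = 0.072). Rps23rg1, a retrogene near the receptor level, had 5.40, 6.33 and 5.98 in high PAC + LPS, against 5.12, 5.06 and 4.71 in LPS, and was not called.

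Paralogues outside the symbol rule moved as well. Rps27l, a p53-responsive relative of Rps27, had 12.26, 12.30 and 12.17 in medium PAC, against 12.99, 12.97 and 13.34 in control (-0.86 ± 0.14, SE, limma, adjusted p = 0.00019). It was also lower in high PAC (-0.87), with LPS in medium PAC (-0.58) and high PAC (-0.56), set against LPS, and in LPS against control (-0.48, adjusted p = 0.010), but the LPS call was lost with arrays centred on expressed genes (-0.23, adjusted p = 0.22) or on other bright genes (-0.36, adjusted p = 0.063). The call in high PAC with LPS was lost with arrays centred on expressed genes (adjusted p = 0.056). Rpl36al, the relative of Rpl36a, fell in medium PAC (-0.65) and high PAC (-0.42) against control, and, with LPS in all groups, in medium PAC (-0.43) and high PAC (-0.64). Its call in high PAC against control was lost with arrays centred on expressed genes (adjusted p = 0.054). Whether near-identical copies share probes was not tested. Rpl10l, Rpl39l, Rpl3l and Rps4l lay at or near the receptor level, with group means from 2.81 to 5.10, and were not called. Of the ribosomal proteins with other symbols, Rpsa was lower in LPS than in control (-0.36, adjusted p = 0.013), a call lost under both centrings (-0.12 and -0.24, adjusted p = 0.45 and 0.10), and Fau was not called in any of the 7 comparisons.

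Genes around the ribosome gave mixed counts. Of all features, 5.03% were called higher in medium PAC and 3.21% in high PAC against control, and 7.17% in medium PAC and 4.34% in high PAC with LPS; the shares called lower are those given above for the members. In medium PAC against control, 3 of 43 translation factors were lower and 0 higher (6.98%, near the 6.28% of all features called lower), and 1 was higher and 1 lower with arrays centred on expressed genes. They were Eif2s2, a subunit of the initiation factor that carries the first tRNA (-0.80, adjusted p = 2.2e-05), Eef1b2 (-0.38) and Pabpc1 (-0.35). Eif2s2 was also lower in high PAC (-1.36), with LPS in medium PAC (-1.03) and high PAC (-1.28), set against LPS, and higher in LPS than in control (0.81).

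Of 117 ribosome biogenesis genes, 5 were higher and 23 lower in medium PAC (19.7% lower, against 6.28% of all features), led by Surf6 (-1.61), and 4 were higher and 13 lower in high PAC (11.1% lower, against 3.64%). With LPS, 10 were higher and 7 lower in medium PAC (5.98% lower, against 7.47%), and 1 higher and 16 lower in high PAC (13.7% lower, against 5.74%), led by Mphosph10 (-1.27). With arrays centred on expressed genes the lower counts were 14 in medium PAC, 8 in high PAC and 10 in high PAC + LPS, and with arrays centred on other bright genes the medium PAC + LPS split was 9 higher and 11 lower. Without the 3 arrays with high Il1b, 14 were lower in medium PAC and 7 in high PAC. Other TOP mRNAs had 4 of 21 lower in medium PAC and 3 of 21 in high PAC, 0 of them with arrays centred on expressed genes and 1 and 0 without the arrays with high Il1b. With LPS 0 were lower, and Vim was higher in medium PAC (0.72) and high PAC (0.59).

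Of 16 genes of RNA polymerase I and its factors, 2 were lower in medium PAC (12.5%, against 6.28% of all features) and 2 in high PAC (12.5%, against 3.64%). Among them was Polr2k (-0.48 and -0.71), a subunit shared by the polymerases. In medium PAC the split became 1 higher and 1 lower with arrays centred on expressed genes, and 0 were called without the arrays with high Il1b. Of 36 genes of Myc and mTORC1 signalling, 3 were higher and 6 lower in medium PAC (16.7% lower, against 6.28% of all features). Without the arrays with high Il1b it was 2 and 5. In high PAC 2 were higher and 3 lower (8.33%, against 3.64%). With LPS it was 2 and 3 in medium PAC (8.33%, against 7.47%) and 1 and 1 in high PAC (2.78%, against 5.74%). Tsc1 was higher in medium PAC (1.27) and high PAC (0.71) against control and, with LPS in all groups, in medium PAC (0.97) and high PAC (0.83). Sesn1, of the same list, was lower in medium PAC (-2.17) and high PAC (-1.63) against control. The activity of mTORC1 was not tested. Of 76 mitochondrial ribosomal proteins, 2 were higher and 6 lower in medium PAC (7.89% lower, against 6.28% of all features), 3 and 5 in high PAC (6.58%, against 3.64%), 6 and 7 in medium PAC + LPS (9.21%, against 7.47%), and 1 and 11 in high PAC + LPS (14.5%, against 5.74%; 3 and 4 with arrays centred on expressed genes). Without the arrays with high Il1b 3 were lower in medium PAC and 3 in high PAC. Mrpl33 was lower in all 4 (-0.997, -1.06, -0.86 and -0.91). None of these lists had a call in low PAC or low PAC + LPS.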

How the data were processed

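RNA of 24 RAW264.7 samples was labelled with biotin and hybridised to Clariom S mouse arrays, 1 colour, 3 arrays for each of 8 groups. The authors deposited 1 table of log2 values, already summarised per feature and normalized across arrays and it was used as deposited. Which normalization they applied was not given in the sources used here. Of 28846 features, 6640 controls were left out, and 19572 of the 22206 gene features had a symbol. Array data hold no read depth, so the number of arrays limits the precision. A single limma model (3.58.1, R 4.3.3) of 8 group means was fitted to all gene features, with 16 residual degrees of freedom, and p-values were adjusted by Benjamini-Hochberg over all 22206 features of a comparison. Called means adjusted p under 0.05. Every adjusted p is from this fit, except those given with a named alternative, which are from the refit under that alternative. The fit was tested on simulated data. Members and gene lists were chosen with earlier results of these data known. Genes named were, per comparison with control or LPS and per comparison of fractions, up to 5 called members each way by size, the 3 brightest and 3 dimmest members, stalk proteins, paralogue pairs, and up to 3 called genes each way of the other lists. The other called members were named after their values were seen. The receptor level is the 95th percentile over 1412 olfactory and vomeronasal receptor features. Alternatives were other scalings, a filter at the receptor level, only the compared groups, a variance trend, a replicate block and leaving out arrays. The scaling shifts moved the median of all genes by up to 0.236. Motifs and tracts were searched with Python 3.11.15.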

Additional observations from a re-analysis of the deposited data

How the results depend on the processing

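Of 53 called results for named genes, 5 held under every alternative, 48 lost their call under at least 1 and 0 changed sign. The number of called members depended on the setting, and in some comparisons so did their direction. With arrays centred on expressed genes, LPS against control went from 3 higher and 10 lower to 4 and 0. High PAC + LPS against LPS went from 0 higher and 11 lower to 2 and 2. With arrays centred on expressed genes the calls were 4 for LPS against control, 6 for medium PAC and 4 for high PAC against control, with LPS 7 for medium PAC and 4 for high PAC against LPS alone, and 3 each for medium PAC and high PAC against low PAC and for high PAC + LPS against low PAC + LPS. The members' median became 0.0697 for LPS, and with LPS -0.16 for medium PAC and -0.0782 for high PAC. With quantile normalization it was -0.20 for medium PAC + LPS, and 2 members were called in medium PAC + LPS against low PAC + LPS. Testing only features above the receptor level gave 26 (LPS), 27 (medium PAC), 24 (medium PAC + LPS), 22 (high PAC + LPS), 18 (medium against low PAC), 14 (high against low PAC) and, with LPS, 10 each for medium and high against low PAC. A variance trend with a robust prior gave 31 (LPS), 33 (medium PAC), 30 (high PAC), 29 each for medium and high PAC + LPS, 24 (medium against low PAC), 1 (medium against high PAC), 22 (high against low PAC) and, with LPS, 15 (medium against low PAC), 2 (medium against high PAC) and 18 (high against low PAC), with 1 for the interaction of medium PAC. Fitting only the compared groups gave 2 (LPS), 2 (medium PAC), 0 (high PAC), 0 (medium PAC + LPS), 1 (high PAC + LPS), 1 (medium against low PAC), 0 (high against low PAC), 0 (high PAC + LPS against low PAC + LPS) and 1 (interaction of medium PAC). In 2 settings added after seeing the data, centring on other bright genes gave 5 (LPS), 22 (medium PAC + LPS), 17 (high PAC + LPS), 9 and 8 (medium and high against low PAC with LPS) and medians of -0.0589 for LPS and, with LPS, -0.25 for medium PAC and -0.26 for high PAC, and leaving out the 3 resting PAC arrays with high Il1b gave 7, 3, 5 and 2 calls for medium PAC and high PAC against control and against low PAC. The cause of these shifts was not tested, and neither was the part of the fewer features tested above the receptor level.

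Leaving out 1 array at a time gave 6 to 9 calls for LPS, 0 for low PAC, 6 to 9 for medium PAC, 4 to 7 for high PAC, 0 for low PAC + LPS, 5 to 8 for medium PAC + LPS, 4 to 8 for high PAC + LPS, 1 to 6 for medium against low PAC, 2 to 6 for high against low PAC, 0 for medium against high PAC and, with LPS, 0 to 1, 0 and 1 to 4 for medium against low, medium against high and high against low PAC, and 0 for each interaction. The medians ran from -0.20 to -0.15 for LPS, -0.05 to -0.01 for low PAC, -0.27 to -0.21 for medium PAC, -0.22 to -0.17 for high PAC, and, with LPS, -0.13 to -0.07 for low PAC, -0.20 to -0.15 for medium PAC and -0.20 to -0.17 for high PAC. Replicate numbers are only names here: in no comparison did every pair of same-numbered arrays correlate above 0.1. With the replicate number as a block, 8 members were called in medium PAC + LPS against LPS in place of 14.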
